A study of Mus musculus with 30 samples.

Results

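Of 27876 H3K27ac peaks found in cells growing with estradiol (E2), 488 had no H3K27ac peak over them after 120 h without E2 and lay in an H3K27me3 domain of the 120 h list. They are called domain-lost peaks here. Overlap means 1 bp or more shared by 2 intervals of the peak lists, on chromosomes 1 to 19 and X. In 3 lists the choice of the 488 fixed the outcome (H3K27ac in E2, H3K27ac at 120 h and H3K27me3 at 120 h), so these are described only. The other lists, H3K27ac at 24, 40, 56 and 72 h and H3K27me3 in E2 and at 24, 40 and 72 h, played no part in that choice. A name such as "acetylated regions turned to H3K27me3" can apply to at most 420 of the 488, which overlapped no H3K27me3 domain in E2. With read depth unknown, a missing domain does not show that the mark was absent. The remaining 68 already overlapped an H3K27me3 domain in E2.

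The lists come from chromatin immunoprecipitation with sequencing of mouse ER-Hoxa9-Lys-GFP cells (C57BL/6, cultured in RPMI with serum and stem cell factor conditioned medium). Their HOXA9, which acts through its homeodomain in early blood cells, is fused to the estrogen receptor, and such a fusion is active while E2 is present. The conditions were E2 throughout, 24 h without E2 followed by 96 h with E2 restored, 40 h without followed by 80 h with, 56 h without followed by 64 h with, 72 h without followed by 48 h with, and 120 h without E2 and no restoration. All conditions share the fusion, so there is no line without it among them. The times 24, 40, 56 and 72 h below name the length of withdrawal before E2 was given back, so a longer withdrawal always came with less time back in E2 and the 2 cannot be told apart. The 56 h condition had an H3K27ac list only. Every list stands for 1 library, so no p-value is given. Values in brackets after a share or a difference in percentage points are 95% intervals, Clopper-Pearson in the first case and Newcombe in the second. They reflect only how many peaks were counted, and peaks of 1 domain are not independent.

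H3K27ac and H3K27me3 are modifications of the same lysine of histone H3. The acetyl group is written mainly by the CBP and p300 acetyltransferases at active promoters and enhancers. The trimethyl group is written by EZH1 or EZH2 in Polycomb repressive complex 2, which keeps genes of other lineages or stages silent. A histone tail cannot carry both at that lysine, so a stretch that passes between them has to lose its acetyl groups before it can be methylated. In myeloid differentiation, enhancers of the progenitor programme are known to be decommissioned while those of granulocytes and macrophages are activated. The peak lists are averages over many cells: fewer cells with a mark and less of the mark in each cell cannot be told apart, and 2 marks on 1 stretch may belong to different cells or alleles.

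The lists differed in length, which bears on every share below. In the order E2, 24, 40, 56, 72 and 120 h, the H3K27ac lists held 27876, 36845, 28791, 6356, 24930 and 48710 peaks. In the order E2, 24, 40, 72 and 120 h, the H3K27me3 lists held 4354, 5125, 3845, 5166 and 6927 domains, which covered 5.47, 9.10, 6.08, 8.06 and 12.9 Mb. The 120 h H3K27ac list, in which the 488 have no peak, was the longest of its kind. The 56 h list was much shorter than the others, and its values are given without comparison to other times. Positions are given in mm9. No gene is named because no annotation of mm9 was used here.

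The selection itself had these proportions, which are a description. Among all E2 peaks 36.4% had no overlap in the 120 h H3K27ac list and 2.04% lay in a 120 h H3K27me3 domain. Of the 10148 lost peaks, 4.81% lay in such a domain and are the 488. Inside the 120 h domains 488 of 568 E2 peaks were lost (85.9%, 82.8 to 88.7), and outside them 9660 of 27308 (35.4%, 34.8 to 35.9). Just inside the limit, 6 domain-lost peaks had less than 50 bp in a domain, the shortest overlap being 17 bp. Just outside it, 19 lost peaks lay within 100 bp of a domain without touching one, the nearest at 11 bp. Most cases were clear: 443 of the 488 were covered over at least 50% of their length and 350 (71.7%) lay wholly inside a domain.

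In the restored cultures the domain-lost peaks were without H3K27ac in most cases by 40 h and nearly all by 72 h. At 24 h the H3K27ac list overlapped 243 of the 488 (49.8%, 45.3 to 54.3), against 74.6% of all E2 peaks. At 40 h it overlapped 146 (29.9%, 25.9 to 34.2), against 62.8%. At 72 h it overlapped 23 (4.71%, 3.01 to 6.99), against 48.5%. The step between 24 and 40 h moved with list length: with the lists cut to the same number of peaks, the shares were 38.1% at 24 h, 33.4% at 40 h and 4.46% at 72 h. At 56 h the short list overlapped 7 (1.43%), against 10.1%. On all 19 chromosomes that held any, fewer of them overlapped the list at 40 h than at 24 h, and on 18 fewer at 72 h than at 40 h, with equal numbers on the other.

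H3K27me3 over the same peaks followed a later course. Its list overlapped 68 of the 488 in E2 (13.9%, 11 to 17.3), 73 at 24 h (15%, 11.9 to 18.4) and 78 in the 40 h list (16.0%, 12.8 to 19.5). These 3 intervals overlap widely. At 72 h the number was 226 (46.3%, 41.8 to 50.8). Over all E2 H3K27ac peaks the same shares were 0.33%, 0.337%, 0.344% and 0.943%. Among the 9660 other lost peaks, which lie outside the 120 h domains by definition, the numbers in the E2, 24, 40 and 72 h lists were 2, 1, 0 and 1. The higher number of domain-lost peaks at 72 h than at 40 h was seen on all 19 chromosomes. The 24 h list, which overlapped 73, held nearly as many domains as the 72 h list and covered more of the genome (9.10 and 8.06 Mb). At 72 h, 158 of the 226 were covered over their whole length and 68 in part.

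**Figure D1:**
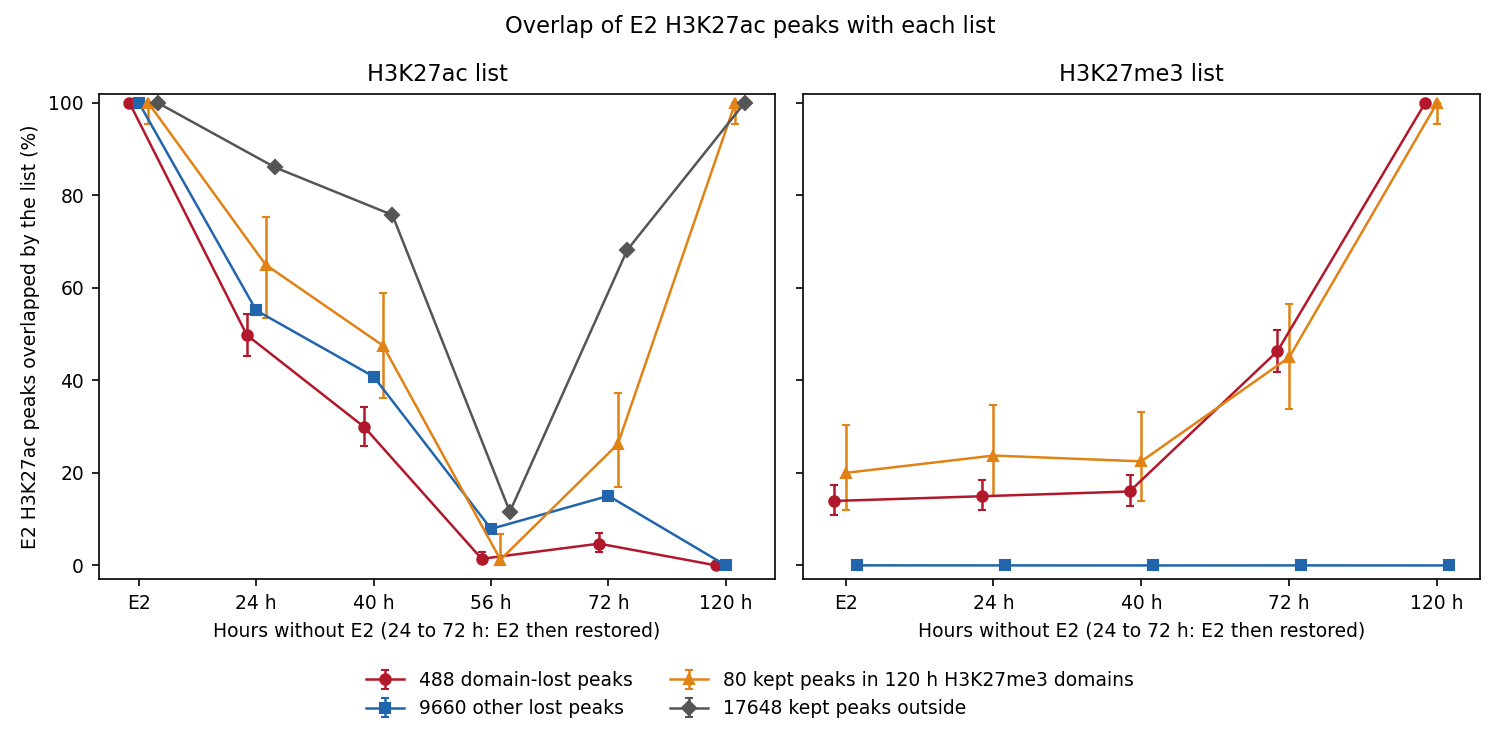
Share of E2 H3K27ac peaks overlapped by each H3K27ac list (left) and each H3K27me3 list (right), with 95% Clopper-Pearson intervals; "kept" peaks overlap the 120 h H3K27ac list. The domain-lost peaks stand at 49.8% in H3K27ac and 15% in H3K27me3 at 24 h, and at 4.71% and 46.3% at 72 h; values in E2 and at 120 h that stand at 100% or 0% are set by the selection.

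At 40 h most of the 488 had neither mark, and at 72 h neither mark and H3K27me3 only were about equally frequent. Having neither mark at 40 h was not particular to them. Of the 9660 other lost peaks, the 40 h lists overlapped 40.8% in H3K27ac and 0 in H3K27me3, so most of those had neither mark too. In E2, 420 had H3K27ac only and 68 both marks. At 24 h, 224 had H3K27ac only, 19 both, 191 neither and 54 H3K27me3 only. At 40 h, 138 had H3K27ac only, 8 both, 272 neither (55.7%, 51.2 to 60.2) and 70 H3K27me3 only. At 72 h, 21 had H3K27ac only, 2 both, 241 neither (49.4%, 44.9 to 53.9) and 224 H3K27me3 only (45.9%, 41.4 to 50.4). Which of these 2 states led at 72 h depended on the lists: with lists cut to equal length, 45.8% had neither mark and 49.8% H3K27me3 only, and with H3K27ac peaks within 1 kb merged the shares were 41.5% and 48.6%. Both marks on 1 peak were listed at 68 sites in E2, where the selection gave H3K27ac to all 488. They were listed at 2 sites at 72 h, where 23 had H3K27ac. The 2 counts thus differ in basis, and no fall is read from them.

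**Figure D2:**
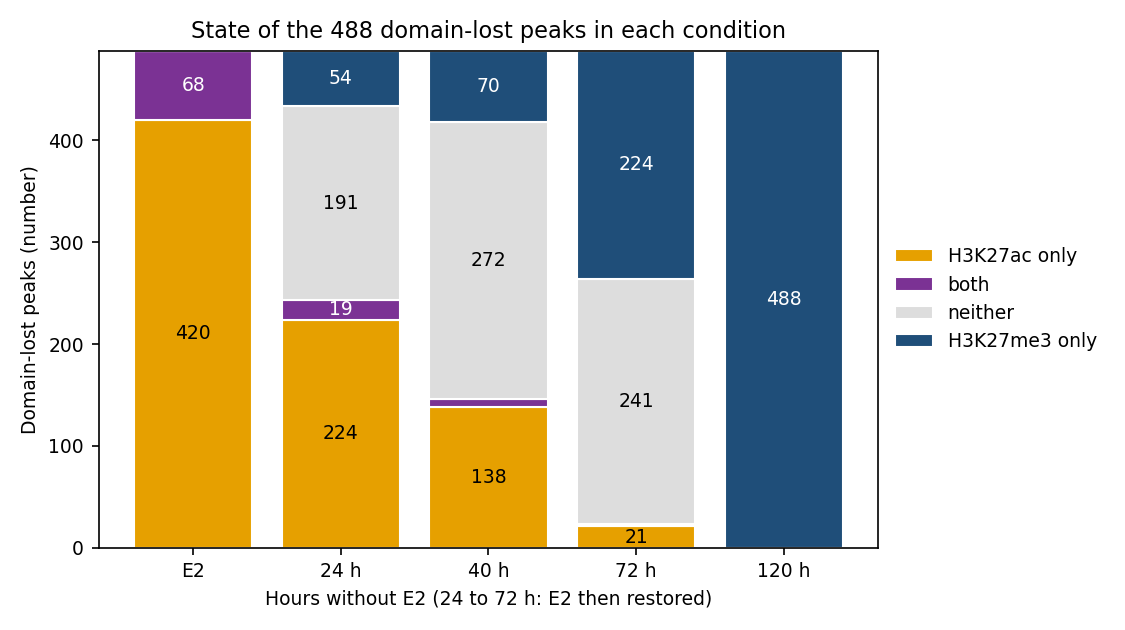
Number of domain-lost peaks overlapped by the H3K27ac list only, by both lists, by neither or by the H3K27me3 list only, in each of the 5 conditions with lists for both marks. Neither mark stands at 272 peaks at 40 h, and at 72 h neither mark (241) and H3K27me3 only (224) are close; E2 and 120 h are partly set by the selection.

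Single peaks were followed from condition to condition. Of the 272 with neither mark at 40 h, 109 had H3K27me3 only at 72 h, 160 still had neither and 3 had H3K27ac only. Of the 138 with H3K27ac only at 40 h, 81 had neither mark at 72 h, 38 had H3K27me3 only, 18 had H3K27ac only and 1 had both. All 70 with H3K27me3 only at 40 h had it at 72 h too. The conditions are separate cultures, so these are not histories of the same cells. Sorted by the first list with H3K27me3, in the order E2, 24, 40, 72 and 120 h, the 488 divided into 68, 17, 16, 132 and 255. Sorted by the last list with H3K27ac among E2, 24, 40 and 72 h, they divided into 236, 103, 126 and 23. The 236 thus had H3K27ac in E2 and in none of the 24, 40 and 72 h lists. The same count over other E2 peaks was not made, so it is not shown to be particular to this set. In the 24 h list alone, H3K27ac overlapped 49.8% of domain-lost, 55.1% of other lost and 74.6% of all E2 peaks.

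**Figure D3:**
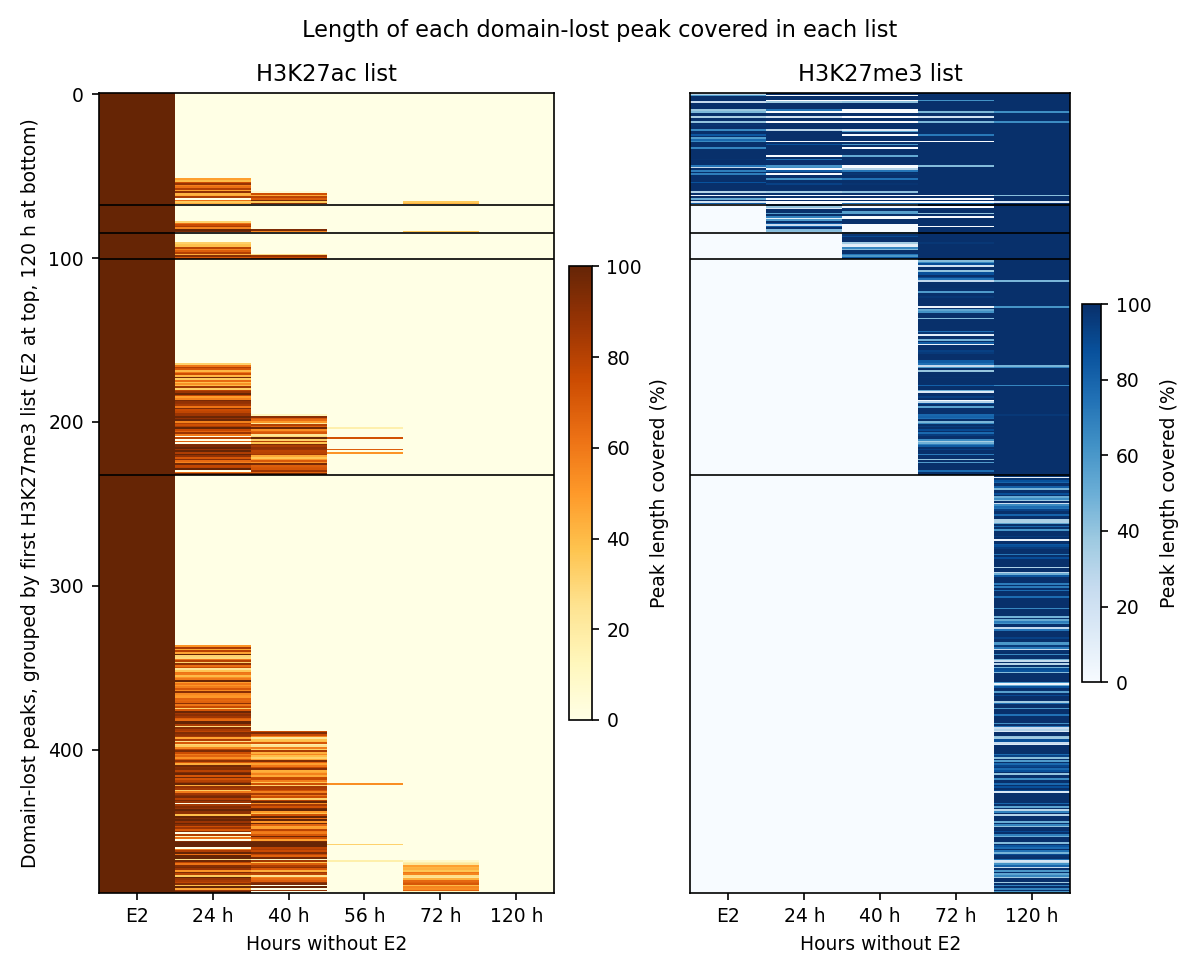
Each row is 1 domain-lost peak and the colour gives the share of its length (%) covered in each H3K27ac list (left) and H3K27me3 list (right). Rows are grouped by the first H3K27me3 list that overlaps them (68, 17, 16, 132 and 255 in the order E2, 24, 40, 72 and 120 h, divided by lines); the E2 group at the top has little H3K27ac at 24 h.

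Other lost peaks were the closest comparison, since they too had H3K27ac in E2 and none at 120 h, but lay outside the 120 h H3K27me3 domains. The domain-lost peaks had H3K27ac less often in the 40 and 72 h lists, and in the 24 h list by a margin that was not stable. The share was 49.8% in domain-lost peaks and 55.1% in other lost peaks at 24 h (difference -5.33 points, -9.86 to -0.798). At 40 h it was 29.9% and 40.8% (-10.9 points, -14.9 to -6.57), and at 72 h 4.71% and 15% (-10.3 points, -12.0 to -7.96). By chromosome, the domain-lost share was the lower on 12 of 19 at 24 h, on 15 at 40 h and on 17 at 72 h. Domain-lost peaks were the wider, with a median of 306.5 bp (quartiles 210.75 and 471) against 235 bp (179 and 346) in other lost peaks. With the other lost peaks weighted to the widths of the domain-lost ones, the differences were larger: -12.9, -18.2 and -14.1 points at 24, 40 and 72 h, a weighting chosen after the values had been seen. The 24 h difference was 2.32 points, thus of opposite sign, with H3K27ac peaks within 1 kb merged, and -1.63 points when lost peaks within 1 kb of a 120 h H3K27ac peak were left out. The 72 h difference was also -19 points among peaks at or above the median width, -26.6 points with the lists cut to equal length, and -5.99 points with H3K27ac peaks within 1 kb merged, so its size, but not its direction, depended on these choices.

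A related comparison takes all E2 peaks, lost or kept, by their distance to a 120 h H3K27me3 domain. It is not free of the selection, since 488 of the 568 peaks inside a domain are the domain-lost peaks. The share lost at 120 h also fell with distance, from 85.9% inside and 59.6% within 1 kb to 33.2% beyond 100 kb. At 72 h H3K27ac overlapped 7.75% (5.68 to 10.3) of the 568 peaks inside a domain and 30.4% (25.5 to 35.8) of the 322 peaks outside but within 1 kb. The share was 36.3% from 1 to 5 kb, 44.6% from 5 to 20 kb, 48.2% from 20 to 100 kb and 51.8% (51.0 to 52.6) beyond 100 kb. At 24 h the range was smaller, from 51.9% inside and 64.3% within 1 kb to 76.8% beyond 100 kb. Median peak widths in these classes lay between 279 and 314.5 bp.

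A small set of E2 peaks kept H3K27ac at 120 h although they too lay in a 120 h H3K27me3 domain. There were 80 of them. They were set apart from the domain-lost peaks by H3K27ac at 120 h. Differences in H3K27ac at other times are not independent of that split. Domain-lost peaks had H3K27ac less often than these at 24 h (49.8% against 65%), at 40 h (29.9% against 47.5%) and at 72 h (4.71% against 26.25%), the last a difference of -21.5 points (-32.2 to -12.8). In H3K27me3 the 2 sets were not told apart in E2 (13.9% in domain-lost and 20% in kept peaks, difference -6.07 points, -16.5 to 1.97) or at 72 h (46.3% and 45.0%, difference 1.31 points, -10.4 to 12.6). At 24 h the domain-lost share was the lower (15% and 23.75%, difference -8.79 points, -19.6 to -0.0971), and at 40 h the interval included 0 (16.0% and 22.5%, difference -6.52 points, -17.2 to 2.01). Intervals this wide do not show that the sets were alike.

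The 488 fell into 3 kinds by where H3K27me3 stood in E2. The first kind, 68 peaks in 54 domains, already overlapped an E2 domain, over 79.6% of their summed length. The second, 50 peaks in 39 domains, had none themselves, but the 120 h domain around them overlapped an E2 domain. Such domains are called widened here. The 120 h list covered 12.9 Mb against 5.47 Mb in E2 with read depth unknown, so whether the mark itself spread was not tested. The median distance of these 50 peaks to the E2 domain was 799 bp (quartiles 379 and 1432.5). The third and largest, 370 peaks (75.8%) in 233 domains, lay in 120 h domains with no E2 counterpart, at a median of 123856 bp from the nearest E2 domain.

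The already marked kind had the lowest H3K27ac shares at 24 and 40 h. At 24 h H3K27ac overlapped 15 of the 68 already marked peaks (22.1%), against 228 of the other 420 (54.3%), a difference of -32.2 points (-41.7 to -20.1). At 40 h it overlapped 8 (11.8%) and 138 (32.9%), a difference of -21.1 points (-28.4 to -10.4). In H3K27me3 they had 56, 54 and 64 of 68 at 24, 40 and 72 h, and 50 of them overlapped all 5 lists. Their median width was 259.5 bp, against 253 bp in widened and 319.5 bp in new domains.

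Peaks in widened domains had H3K27me3 at 7, 6 and 32 of 50 at 24, 40 and 72 h, and peaks in new domains at 10, 18 and 130 of 370. At 72 h the shares were 64.0% (49.2 to 77.1) in widened and 35.1% (30.3 to 40.2) in new domains, a difference of 28.9 points (14.1 to 41.6). Width moved with this contrast, since the median 120 h domain measured 4750 bp among widened and 1534 bp among new ones. Among domains of 4000 bp or more the 72 h share was 25 of 36 peaks in widened domains (69.4%) and 39 of 50 in new ones (78.0%), so the higher value in widened domains was not seen in that width class. In the class from 2000 to under 4000 bp there were only 9 peaks in widened domains (5 with H3K27me3), against 74 of 148 in new ones.

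For the 420 peaks with no H3K27me3 in E2, H3K27me3 at 72 h was listed more often the wider the later domain. In 4 classes of domain width of about equal size, the 72 h list overlapped 5 of 104 peaks in domains under 1129 bp (4.81%, 1.58 to 10.9), 27 of 105 up to 2300 bp (25.7%), 53 of 106 up to 3590 bp (50%) and 77 of 105 in wider domains (73.3%, 63.8 to 81.5). H3K27ac at 40 h did not follow that order, with 32.7%, 25.7%, 42.5% and 30.5% in the same classes. The width of the acetylated peak itself gave no difference beyond the interval: 81 of 211 wider peaks and 81 of 209 narrower ones had H3K27me3 at 72 h (difference -0.37 points, -9.60 to 8.87). Peaks that still had H3K27ac at 40 h had H3K27me3 at 72 h in 42 of 138 cases (30.4%), and peaks without it in 120 of 282 (42.6%), a difference of -12.1 points (-21.3 to -2.24). By H3K27ac at 24 h the shares were 35.1% and 42.7% (-7.62 points, -16.8 to 1.70), an interval that includes 0.

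The 488 were held by 317 of the 6927 H3K27me3 domains at 120 h (4.58%), and none spanned 2 domains. These domains had a median width of 2117 bp (quartiles 913 and 3541, range 146 to 20677), against 979.5 bp (442 and 2357.25) for the 6556 domains with no E2 H3K27ac peak. A wider domain overlaps more peaks by its length alone, so a greater width of holding domains is partly built in and is a description. In E2, 84 of the 317 overlapped an H3K27me3 domain (26.5%, 21.7 to 31.7), against 44.2% of domains with no E2 H3K27ac peak (-17.7 points, -22.4 to -12.4). This held in each of 5 width classes, with the largest gap at 2000 to under 4000 bp: 27.7% of 101 holding domains and 79.2% of 1097 others (-51.5 points, -59.6 to -41.7). The 2 groups of domains were split by H3K27ac in E2, where only 0.33% of H3K27ac peaks overlapped H3K27me3. A lower E2 share in holding domains is thus partly built in by that split, and these E2 values are a description.

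Looking only at domains absent from E2 gave 233 that held a domain-lost peak and 3660 that held no E2 H3K27ac peak. At 24 h H3K27me3 was listed in 23 of the 233 (9.87%), against 29.8% of the 3660 (-20.0 points, -23.5 to -15.2). In 4 of the 5 width classes this difference had an interval below 0, and at 2000 to under 4000 bp the shares were 12.3% and 53.1%. At 4000 bp or more, with 19 and 47 domains, they were 47.4% and 51.1% (-3.70 points, -27.9 to 21.4). At 40 h the shares were 11.2% and 14.3%, with an interval that included 0 (-3.16 points, -6.78 to 1.66). In the 40 h list the holding domains were again lower in the 4 classes below 4000 bp, but at 4000 bp or more the shares were 52.6% and 34.0% (18.6 points, -6.75 to 41.9). At 72 h the holding domains were listed in 94 of 233 cases (40.3%) and the others in 31.3% (9.03 points, 2.75 to 15.6), but that order was not seen within width classes. The holding domains were lower in each class below 2000 bp (33.3% and 49.6% at 1000 to under 2000 bp, -16.3 points, -28.0 to -2.51). From 2000 to under 4000 bp the shares were 74.0% and 72.8% (1.17 points, -11.1 to 11.8), and from 4000 bp 89.5% and 93.6% (-4.14 points, -25.4 to 9.04). Of the summed length of the 233 domains, 4.09% was covered at 24 h, 5.06% at 40 h and 33.2% at 72 h.

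**Figure D4:**
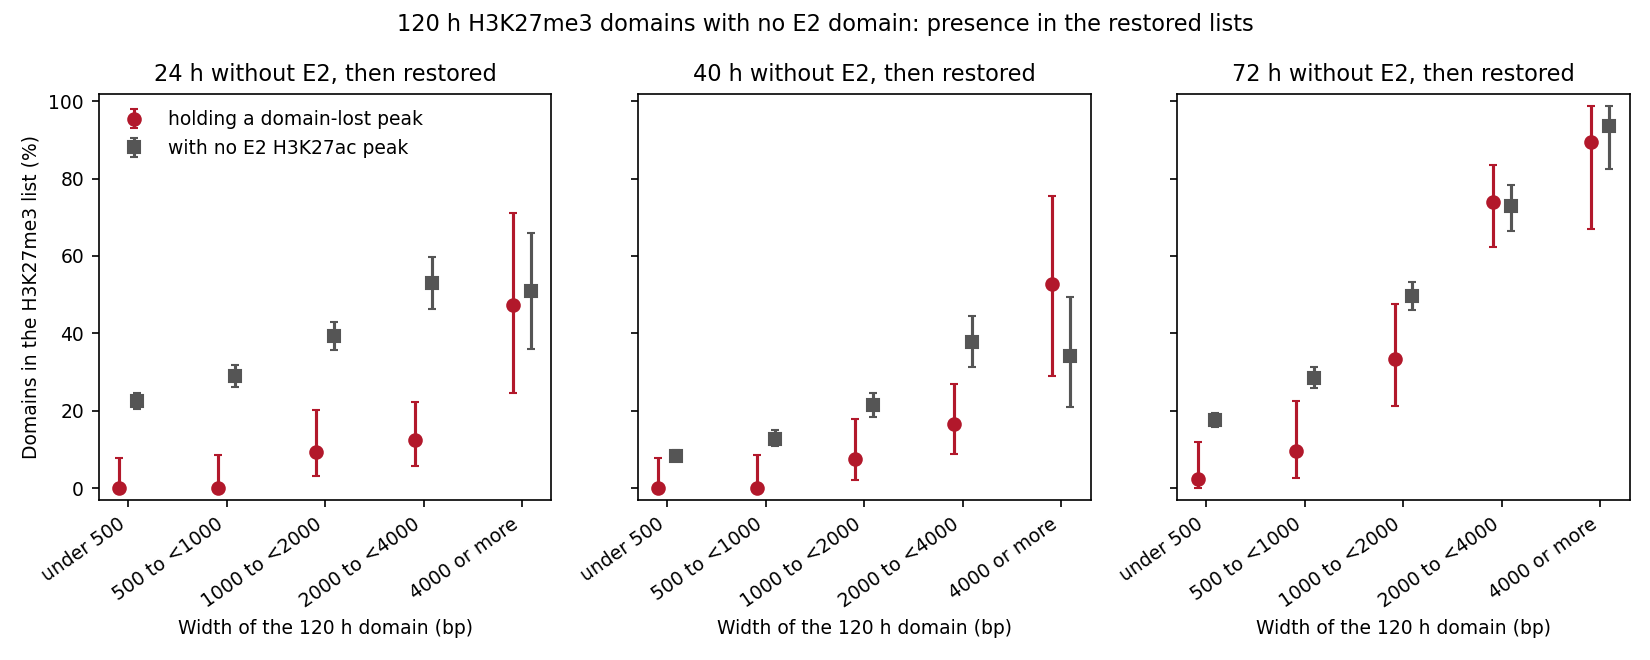
Share of 120 h H3K27me3 domains without an E2 counterpart that overlap the 24, 40 or 72 h H3K27me3 list, by domain width, with 95% Clopper-Pearson intervals. From 2000 to under 4000 bp, 12.3% of domains holding a domain-lost peak and 53.1% of domains with no E2 H3K27ac peak are listed at 24 h, and 74.0% and 72.8% at 72 h.

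The H3K27me3 peaks lying over domain-lost peaks differed in number more than in width between lists. In the order E2, 24, 40, 72 and 120 h they numbered 55, 57, 54, 149 and 317, with median widths of 1478, 2216, 2186.5, 1899 and 2117 bp. Where a holding domain was already overlapped at an earlier time, the median part of its 120 h length covered was 42.7% in E2 and 57.7, 51.6 and 62.3% at 24, 40 and 72 h. Within the domains, 225 of the 350 peaks lying wholly inside (64.3%) had their centre in the central 50% of the domain. Lying wholly inside keeps a centre away from the domain edges. A share above 50% is thus partly built in, and no central placement is read from it.

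Domain-lost peaks often shared a domain. Of the 317 domains, 218 held 1, 56 held 2, 25 held 3, 11 held 4, 4 held 5, 2 held 6 and 1 held 7, so that 270 of the 488 (55.3%) had another in the same domain. With H3K27ac peaks within 1 kb merged, that share was 8.10%. Chaining peaks with gaps of up to 50 kb gave 293 groups, of which 190 were single peaks and 10 held 5 or more, with 63 peaks in all. Between the ends of those 10 groups lay 68 E2 H3K27ac peaks: the 63, 5 more that were lost outside a domain, and 0 that were kept. Over all holding domains, 302 had no kept E2 peak and 15 had at least 1. These counts of kept and lost peaks rest on the 120 h lists used in the selection. The same holds for the distances to kept and to 120 h H3K27ac peaks. All of them are described only. The nearest kept E2 peak lay at a median of 41703.5 bp from a domain-lost peak and 12266.5 bp from another lost peak. For the nearest 120 h H3K27ac peak the medians were 34681 and 6754.5 bp.

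The largest group lay on chromosome 11 of mm9 (chr11:44424793-44435343) and held 10 domain-lost peaks in 10551 bp, with no other E2 peak between them. H3K27ac was listed at 7 of the 10 at 24 h and at 40 h and at 0 at 72 h. H3K27me3 was listed at 0 of the 10 in E2, at 24 h and at 40 h, and at 5 at 72 h. The main domain of this group (chr11:44431722-44435262, 3541 bp, 5 domain-lost peaks) had 2533 bp of H3K27ac in E2 and 2973, 2759, 147, 0 and 0 bp after 24, 40, 56, 72 and 120 h. Its H3K27me3 covered 0 bp in E2 and 0, 0, 2264 and 3541 bp after 24, 40, 72 and 120 h. The acetylated length at 40 h was thus no shorter than in E2, and none was listed at 72 h.

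The domain with most domain-lost peaks, 7, lay on chromosome 2 (chr2:84723373-84729954, 6582 bp) and overlapped H3K27me3 already listed in E2, which lay over 5 of the 7 peaks at least in part. H3K27me3 covered 2599 bp of it in E2 and 2827, 4397, 5494 and 6582 bp after 24, 40, 72 and 120 h. H3K27ac covered 1974 bp in E2, 656 and 41 bp after 24 and 40 h, and 0 bp from 56 h on. In this domain the methylated length was greater in each list of longer withdrawal. The acetylated length was shorter at 24 h than in E2 and shorter again at 40 h, with none listed at 72 h.

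A pair of domains on chromosome 1 had no H3K27me3 in E2 and most of their width at 72 h. The first (chr1:75442534-75449036, 6503 bp, 6 domain-lost peaks) had 0, 0, 1240, 6325 and 6503 bp of H3K27me3 in E2 and after 24, 40, 72 and 120 h. Its H3K27ac covered 3328, 2256, 1222, 0 and 0 bp. The second (chr1:74845711-74854813, 9103 bp, 5 domain-lost peaks) had 0, 161, 870, 7800 and 9103 bp of H3K27me3 in E2 and at 24, 40, 72 and 120 h, and 1447, 1462, 325, 0 and 0 bp of H3K27ac. A domain on chromosome 4 (chr4:136388716-136393807, 5092 bp, 5 domain-lost peaks) had 0, 0, 724, 4354 and 5092 bp of H3K27me3 at the same times, and 1606, 366, 188, 0 and 0 bp of H3K27ac. In these 3 domains the difference between 40 and 72 h made up most of the final width.

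On chromosome 18 a domain with 6 domain-lost peaks (chr18:36046376-36050181, 3806 bp) had 1432 bp of H3K27me3 at 72 h and 0 bp in E2 and at 24 and 40 h. Its H3K27ac covered 2660, 2482 and 1756 bp in E2 and after 24 and 40 h, and none at 72 h. A wider domain of the same chromosome (chr18:38755850-38765044, 9195 bp, 3 domain-lost peaks) was the widest holding domain without an E2 counterpart. It had 2002 bp of H3K27me3 at 72 h and none earlier, while H3K27ac covered 2633, 3828 and 2904 bp in E2, at 24 h and at 40 h and 0 bp at 72 h. Further along, another (chr18:38789285-38794983, 5699 bp, 2 domain-lost peaks) had H3K27me3 at 120 h only and H3K27ac in E2 only (339 bp). These 2 neighbouring domains thus differed in which lists held each mark, although the H3K27ac of the second rested on 2 narrow peaks (173 and 166 bp).

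**Figure D5:**
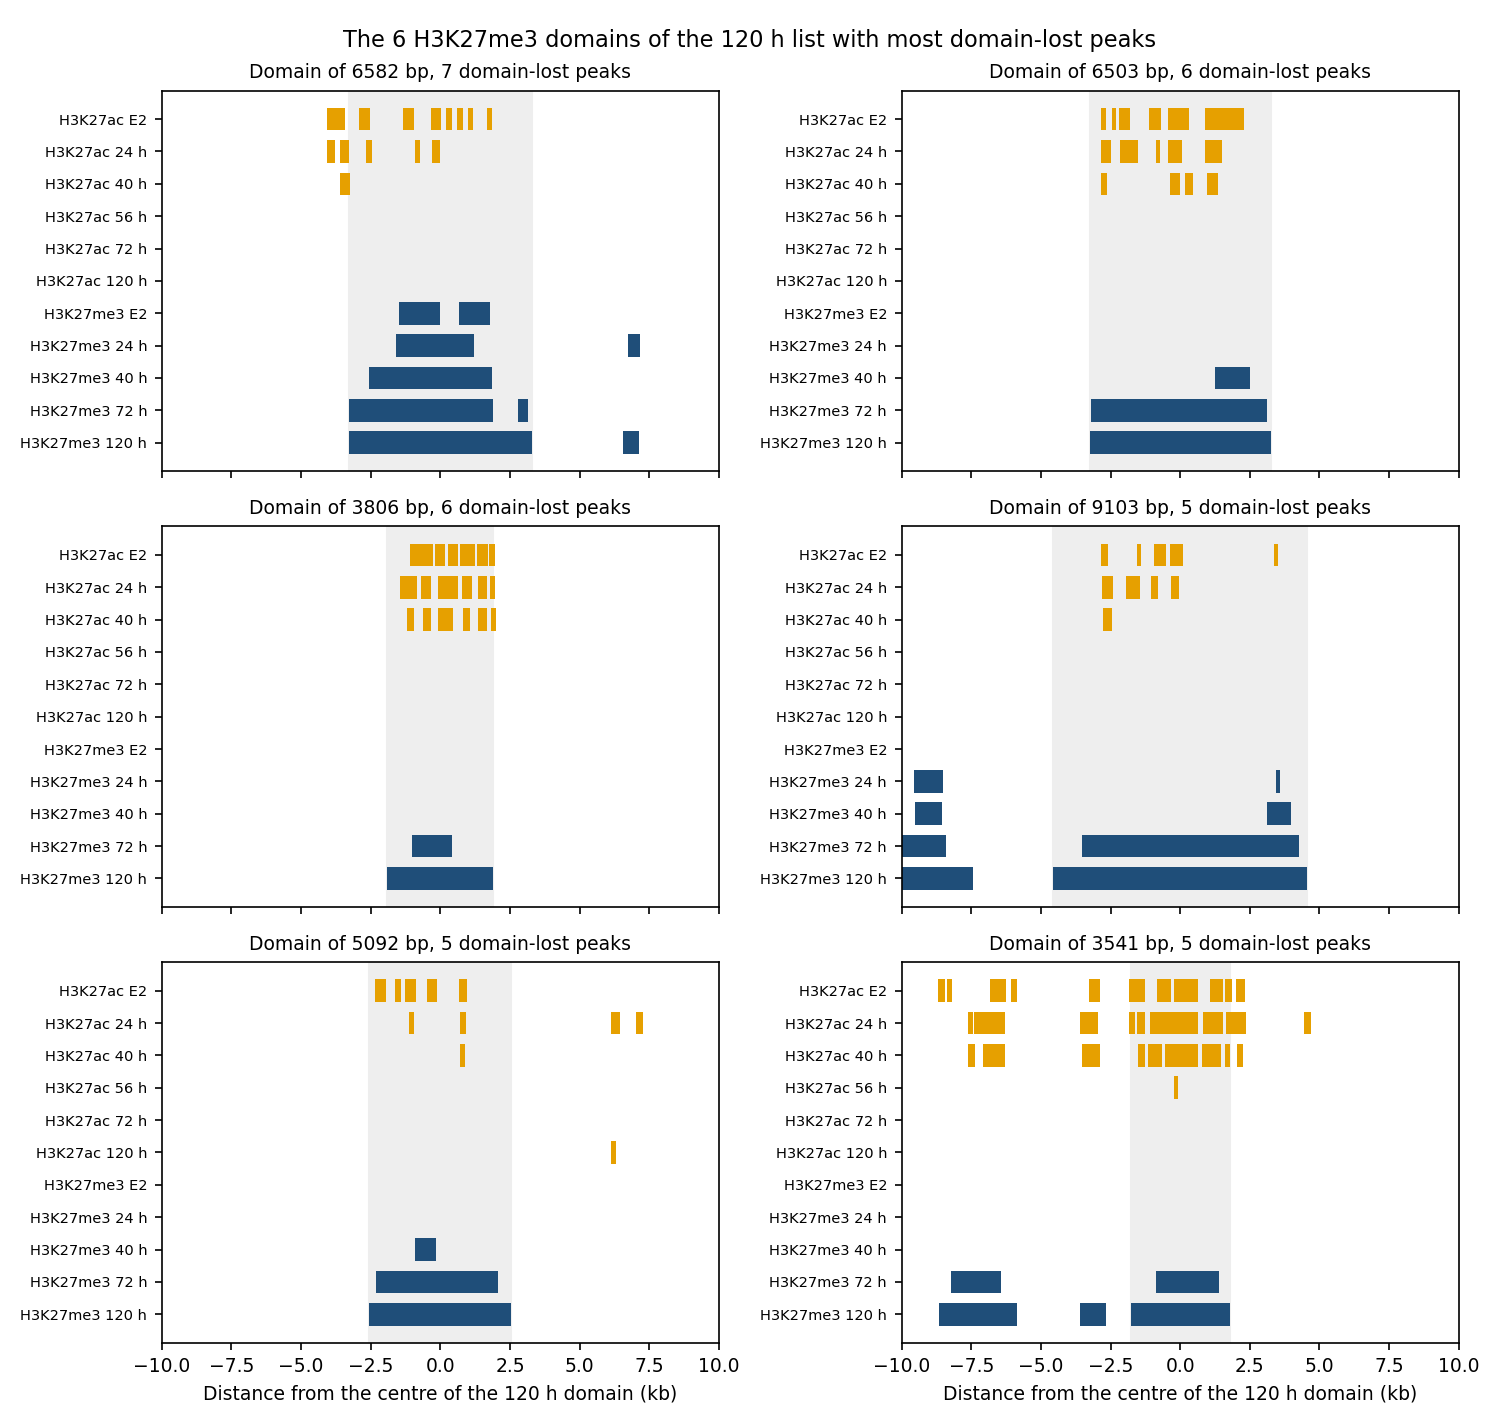
Peaks of the 6 H3K27ac lists (orange) and 5 H3K27me3 lists (blue) around the 6 domains with most domain-lost peaks, by distance (kb) from the centre of the 120 h domain, which is shaded. In 5 of the 6 there is no H3K27me3 inside the shaded stretch in E2, and in all 6 H3K27ac is absent from it at 72 h.

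The other 2 of the widest new domains were on chromosome 11. One (chr11:101028616-101034713, 6098 bp, 2 domain-lost peaks) had 0, 422, 572, 1739 and 6098 bp of H3K27me3 in E2 and at 24, 40, 72 and 120 h, and no H3K27ac after E2 (397 bp). The other (chr11:5758906-5764221, 5316 bp, 3 domain-lost peaks) had 0, 1173, 2227, 4083 and 5316 bp of H3K27me3, and 1691, 1975, 1272, 0 and 0 bp of H3K27ac, with 244 bp of H3K27ac at 56 h. At 24 and 40 h this second domain carried both marks, and its widest domain-lost peak (chr11:5761910-5762795, 886 bp) did so at 40 h only, with 772 bp of H3K27ac and 531 bp of H3K27me3.

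The 10 widest domain-lost peaks were all in new domains, and all 10 had H3K27ac at 24 and 40 h. At 72 h 2 of them had H3K27ac and 3 had H3K27me3, and for 7 of them the first H3K27me3 list was that of 120 h. Their H3K27me3 at 120 h was uneven in extent: 4 were covered over their whole length and 5 over less than 50% of it. The widest (chr8:35870382-35873418, 3037 bp) had 2631, 350 and 0 bp of H3K27ac at 24, 40 and 72 h. Its H3K27me3 was 0 bp up to 40 h, then 2396 and 2940 bp after 72 and 120 h. The next (chr8:124806608-124809597, 2990 bp) had 2911, 2561 and 246 bp of H3K27ac at 24, 40 and 72 h, but only 518 bp of H3K27me3 at 120 h, from a domain of 534 bp.

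Wide peaks wholly covered by H3K27me3 at 120 h, and not before, were found on chromosomes 4 and 10. The chromosome 4 peak (chr4:117166373-117168092, 1720 bp) had 1601 and 1613 bp of H3K27ac at 24 and 40 h, neither mark at 72 h and 1720 bp of H3K27me3 at 120 h. The chromosome 10 peak (chr10:119912956-119914511, 1556 bp) had 1387 and 1176 bp of H3K27ac, neither mark at 72 h and 1556 bp of H3K27me3 at 120 h. A further 4 of the 10 widest were touched only in part: chr18:35989977-35991400 (525 of 1424 bp), chr5:115060678-115062487 (280 of 1810 bp), chr11:77977461-77978972 (615 of 1512 bp) and chr2:156665970-156667422 (415 of 1453 bp), all at 120 h only.

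Of peaks first marked at 72 h, chr13:29043122-29044347 (1226 bp) had 1093 and 875 bp of H3K27ac at 24 and 40 h, none at 72 h, and 929 and 1226 bp of H3K27me3 at 72 and 120 h. Among those first marked at 40 h, chr12:15822049-15822903 (855 bp) had 645 bp of H3K27ac and 720 bp of H3K27me3 in the same 40 h condition. Of those first marked at 24 h, chr7:152024626-152025419 (794 bp) had 494 bp of H3K27ac and 666 bp of H3K27me3 at 24 h and H3K27me3 alone afterwards. Another, chr1:62749318-62749762 (445 bp), departed from the common order, with 420, 247 and 164 bp of H3K27ac and 185, 0 and 445 bp of H3K27me3 at 24, 40 and 72 h. Among the already marked peaks, chr11:57641067-57641710 (644 bp) was wholly covered by H3K27me3 in all 5 lists and had H3K27ac in E2 only.

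Domain-lost peaks were spread over chromosomes 1 to 19 and were not found on X, which had 201 lost H3K27ac peaks and 92 of the 120 h domains. Their number was highest on chromosome 11 (51) and lowest on 16 (8). As a share of the lost peaks of the chromosome, it ran from 2.48% on chromosome 16 to 9.33% on chromosome 18.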

How the data were processed

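Chromatin from mouse ER-Hoxa9-Lys-GFP cells (500 ug per histone immunoprecipitation, per the labels' protocols) gave 11 deposited peak lists, 6 of H3K27ac and 5 of H3K27me3, out of 30 samples. Each line holds coordinates only, so no other measure of a peak, such as its height, could be used. Per the submitters' processing notes, Bowtie2 2.0, BWA and MACS2 2.0 were used, and both mm9 and mm10 are named as builds. Which of the tools made which list, the threshold, any input and the read depth are not given in the sources used here. These lists fit mm9 and not GRCm38: on chromosome 7 the last peak ends at 152474915, beyond the last GRCm38.p6 gene at 145324059. Longer lists overlap more of any set of peaks, and with the depth unknown this could not be corrected for.

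Coordinates were made 1-based, and an overlap of 1 bp or more counted, on chromosomes 1 to 19 and X. Shares carry exact Clopper-Pearson and differences Newcombe 95% intervals (Python 3.11.15, pandas 2.3.3, scipy 1.17.1, statsmodels 0.14.6; figures with matplotlib 3.10.9). The interval functions were tested on simulated data. There is 1 library per condition, so no test across replicates was made. Regions named in the text come from the 10 widest domain-lost peaks, the 3 widest for each first H3K27me3 list, the 6 domains holding most of them and the 6 widest of those without an E2 counterpart. The domain-lost peaks, the rules and the comparisons were chosen with earlier results of these data known. Alternatives were a 50% overlap, a 1 kb margin around lost peaks, wide peaks only, lists of equal length and merged peaks or domains. Further ones were each domain counted once, leaving out chromosome X and leaving out the 10 fullest domains. An equal-width weighting and a 1 kb margin around E2 domains were added after seeing the data. So were the 24 and 40 h H3K27ac differences under the listed alternatives. Since the lists have no scores, width took the place of score where lists were shortened.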

Additional observations from a re-analysis of the deposited data

How the results depend on the processing

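Of 116 values recomputed under the alternatives, 89 stayed within the interval of the reported value and 27 moved outside it. For the number of domain-lost peaks, a set fold range took the place of an interval. Only differences of shares could change sign, and 0 of those among the 116 did. The 24 h H3K27ac difference, which was not among the 116, did so under 1 alternative. The cause of each move was not tested, beyond the smaller sets that some alternatives make by construction. Leaving out chromosome X was among the alternatives, but X held no domain-lost peak. Shares of the domain-lost peaks could therefore not change there, and these values count among the 89. H3K27me3 at 72 h lay between 42.3 and 50.5% in all alternatives, and at 40 h between 13.0 and 18.3%. With 50% of a peak required, the domain-lost peaks (460) had H3K27ac in 40.2, 22.0 and 1.96% of cases at 24, 40 and 72 h, and the 72 h difference from other lost peaks was -12.2 points. With only peaks at or above the median width, 207 were left, with H3K27ac in 44.4 and 2.90% at 24 and 72 h, H3K27me3 in 11.6% at 24 h, a 72 h H3K27ac difference of -19 points, 46.4% sharing a domain and a median domain of 2916.5 bp. With lists cut to equal length, H3K27ac at 24 and 40 h was 38.1 and 33.4%, neither mark at 72 h 45.8%, the 72 h difference -26.6 points, 64.1% shared a domain and the median domain was 2676 bp. With H3K27ac peaks within 1 kb merged, 284 were left, with H3K27ac in 56.3, 35.2 and 9.86%, a difference of -5.99 points, 41.5% with neither mark at 72 h and 8.10% sharing a domain. With H3K27me3 domains within 5 kb merged, 60.1% shared a domain and the median was 2734 bp. Counting every domain once gave 317 and 31.2%, and leaving out the 10 fullest domains gave 50.1% sharing a domain. Of the alternatives chosen after seeing the data, weighting to equal peak width gave a 72 h difference of -14.1 points (-12.9 and -18.2 at 24 and 40 h), the 24 h difference was 2.32 points with H3K27ac peaks merged, and counting E2 H3K27me3 within 1 kb gave 20.5% already marked. No paired analysis was possible because each condition has 1 library. Culture-to-culture spread is therefore not measured, and with read depth unknown a missing peak does not show that a mark was absent.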

Other observations

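Both marks were also listed together at 120 h, at sites that by definition hold none of the 488 domain-lost peaks. In that condition 264 of the 48710 H3K27ac peaks overlapped an H3K27me3 domain (0.542%), in 195 domains, and 189 of the 264 (71.6%) overlapped no E2 H3K27ac peak. In the other conditions the H3K27ac peaks overlapping a domain of the same condition numbered 92 in E2 (0.33%), and 40, 13 and 11 at 24, 40 and 72 h (0.109, 0.0452 and 0.0441%). Of the 317 domains that held a domain-lost peak, 17 contained a 120 h H3K27ac peak. In 15 of these 17 a kept E2 peak, which overlaps 120 h H3K27ac by definition, lay in the same domain.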
